A study of Mus musculus with 12 samples.

Results

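Transcript levels of 10 regulators of the unfolded protein response (UPR) were examined in the hippocampus of mice with and without *Dek*, a chromatin protein. The genes were chosen by name, as the sensors, transcription factors and early effectors of the pathway, and are 10 of the 26409 genes listed in the deposited table. Each of them had 1 row in the table and a mean of at least 0.1 TPM, the level required for a test, which 18197 genes reached. The TPM unit divides reads by transcript length and scales each library to a common total, so levels of different genes can be compared on it.

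Bulk hippocampal RNA came from 12 adult mice, 3 for each combination of sex and genotype, the genotypes being wild type (WT) and *Dek* cKO. All were 6 to 12 months old by the study's methods, and all had gone through behavioural tests before tissue was taken. The *Dek* cKO mice are a constitutive line in which exons 3 and 4, between loxP sites, were deleted with CMV-Cre. The Cre transgene was then bred out and the line was kept on a C57Bl/6 background through heterozygous matings, so *Dek* is missing in every cell type and from the start of life. WT mice carry no *Dek* deletion. *Dek* itself was 48.3 ± 2.58 TPM (SD, n = 6) in WT and 7.23 ± 1.32 TPM (n = 6) in *Dek* cKO libraries, and the ranges of 44.2 to 51.9 and 5.55 to 9.25 TPM do not overlap.

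Several libraries stood apart before any comparison. *Eif2s3y*, a gene of the Y chromosome, was at 72.7 TPM in female cKO replicate 3 and at 0.111 TPM in male cKO replicate 1, against 0.159 to 0.993 TPM in the other libraries labelled female and 69.0 to 92.0 TPM in the other libraries labelled male. A quality display of the study also shows these 2 libraries with the opposite sex. The groups follow the sample labels, which this gene and the display both contradict for these 2 libraries. The main results within a sex are therefore given with and without them. The columns of the 3 female WT libraries begin with C57 and those of the other 9 with CMV, so within females genotype and this naming cannot be told apart. Male cKO replicate 3 held the highest value of the 12 libraries for 19.5% of all genes tested and the lowest for 15.3%, both more often than any other library. The libraries summed to between 825750 and 845553 TPM. The study's methods name a single read depth for all libraries, but the table holds no counts, so no counting interval is given.

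The UPR is the reaction of a cell to unfolded protein in the endoplasmic reticulum (ER), the compartment in which secreted and membrane proteins are folded. Sensors in the ER membrane pass the signal to transcription factors, which raise chaperones, folding enzymes and degradation of misfolded protein, and under lasting stress genes of cell death. Much of this control lies in cleavage, phosphorylation, splicing and translation, so the level of a regulator's transcript is not a measure of its activity, and TPM per gene does not separate spliced from unspliced *Xbp1*. In bulk tissue, fewer cells of a type and less RNA per cell cannot be told apart.

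All 10 regulators had transcripts above 0 in each of the 12 libraries, over a wide range of levels. *Atf4* had the highest mean level (84.1 ± 17.3 TPM, SD, n = 12), above 91.1% of the genes tested. It was followed by *Xbp1* (58.5 ± 4.89), *Ddit3* (49.6 ± 4.82), *Herpud1* (39.6 ± 2.24), *Pdia4* (27.3 ± 2.68), *Atf6* (23.9 ± 2.62), *Sdf2l1* (13.2 ± 1.63), *Eif2ak3* (12.9 ± 1.54), *Ern1* (5.84 ± 0.755) and *Trib3* (0.575 ± 0.257 TPM). Of the 9 neighbouring pairs in this order, *Xbp1* and *Ddit3*, *Pdia4* and *Atf6*, and *Sdf2l1* and *Eif2ak3* had overlapping ranges over the 12 libraries, and the other 6 pairs did not. The relative spread over the libraries (coefficient of variation) was smallest for *Herpud1* at 5.66% and largest for *Trib3* at 44.7%, beside a median of 11.3% over the 14160 genes that averaged 1 TPM or more. It was 20.6% for *Atf4* and 5.45% without male cKO replicate 3, and 10.96% and 5.05% for *Atf6*.

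**Figure D1:**
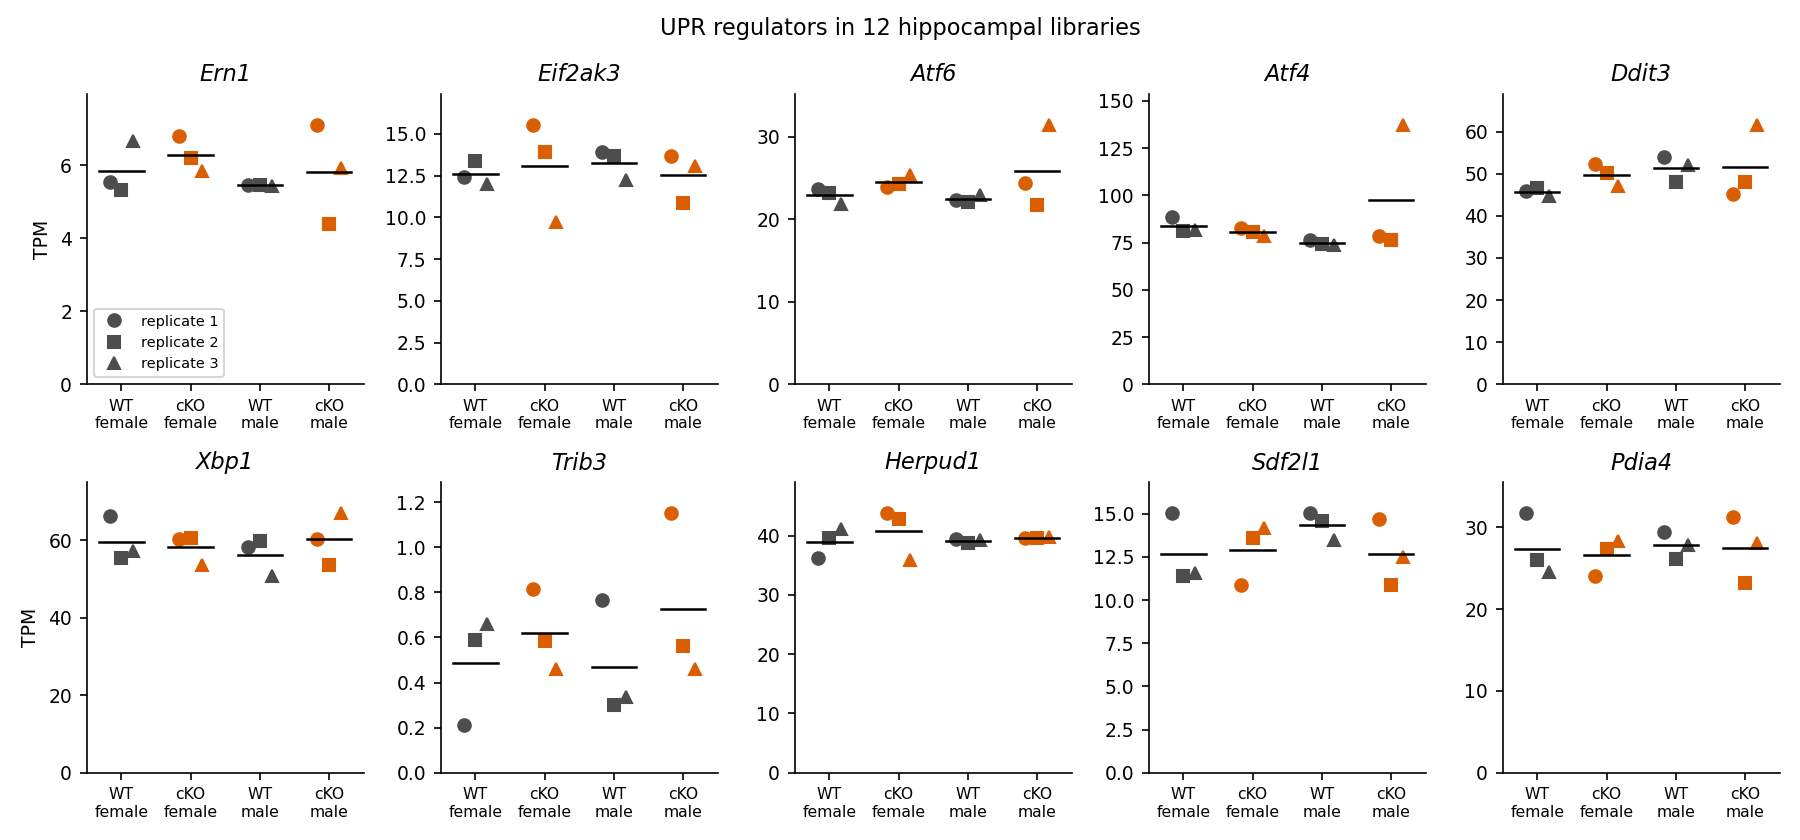
TPM (y axis, from 0) of each UPR regulator in the 4 groups (x axis), with 1 symbol per library, the symbol shape giving the replicate number, WT in grey and *Dek* cKO in orange, and a line at each group mean. For all 10 genes the 6 cKO values overlap the 6 WT values, and male cKO replicate 3 lies at 137 TPM for *Atf4*, where the other 11 libraries lie between 73.6 and 88.7.

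The first question was whether loss of *Dek* moved the transcripts of these regulators in mice of both sexes together, with 6 cKO against 6 WT libraries. No regulator was called: 0 of 10 had both a fold change above 1.2 and an adjusted p under 0.05 in limma (moderated statistics on log2(TPM + 0.1), Benjamini-Hochberg over all genes tested), where 0.148% of all genes did. At an unadjusted p under 0.05 the count was also 0 of 10, beside 6.64% of all genes. The 6 cKO and 6 WT libraries of every regulator overlapped, while 0.676% of all genes had groups that did not. The adjusted p-values of the 10 genes ran from 0.804 (*Atf6*) to 0.989 (*Eif2ak3*). On the log2(TPM + 0.1) scale, which slightly shrinks the difference of low genes, 7 of the 10 differences were above 0, as were 55.8% of all genes, with a median of 0.049 beside 0.016 over all genes tested. Without male cKO replicate 3 the median was 0.0016.

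The membrane sensors come first. *Ern1* (mouse chromosome 11, 106394650 to 106487852, minus strand, GRCm38) encodes IRE1 alpha, the kinase and endoribonuclease that starts the splicing of *Xbp1* RNA. Its lowest, median and highest levels were 5.32, 5.46 and 6.66 TPM in the 6 WT libraries and 4.38, 6.06 and 7.11 TPM in the 6 cKO libraries. The cKO values spread below and above the WT values, both of their extremes being libraries labelled male (replicates 2 and 1). The sex of male cKO replicate 1 is in conflict, and the log2 difference of *Ern1* was 0.084 ± 0.113 (SE). *Eif2ak3* (chromosome 6, 70844515 to 70905245, plus strand) encodes PERK, the kinase that slows translation by phosphorylating eIF2 alpha. It was at 11.99, 12.9 and 13.9 TPM in WT and 9.75, 13.4 and 15.5 TPM in cKO libraries. Here female cKO replicates 3 and 1 formed the 2 ends of the whole range, so that by the labels 1 group of 3 animals held both. The sex of female cKO replicate 3, the lowest, is in conflict. The log2 difference between genotypes was -0.027 ± 0.103.

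*Atf6* (chromosome 1, 170704674 to 170867771, minus strand) encodes the sensor that is cut in the Golgi to free a transcription factor. Its levels were 21.8, 22.6 and 23.7 TPM in WT and 21.8, 24.3 and 31.5 TPM in cKO libraries. Of the 6 cKO libraries, 5 lay above the highest WT library and male cKO replicate 2 lay at 21.8 TPM, just below the lowest, so the groups overlap. The log2 difference of 0.14 ± 0.074 had the smallest unadjusted p of the 10 regulators (0.0775, adjusted p = 0.804, limma) and a 95% interval from 0.988-fold to 1.23-fold. Without male cKO replicate 3, at 31.5 TPM, the log2 difference was 0.075, and without male cKO replicate 2 it was 0.18 (unadjusted p = 0.0245, adjusted p = 0.544, limma).

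Of the transcription factors, *Atf4* (chromosome 15, 80255184 to 80257541, plus strand) encodes the factor translated when PERK is active, which drives amino acid and redox genes. It was at 73.6, 78.7 and 88.7 TPM in WT and 76.4, 79.5 and 137 TPM in cKO libraries. The medians differed by less than 1 TPM, and 5 of the 6 cKO libraries lay within the WT range. The log2 difference of 0.14 ± 0.124 (95% interval 0.912-fold to 1.32-fold, adjusted p = 0.917, limma) was 0.0032 without male cKO replicate 3.

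*Ddit3* (chromosome 10, 127290774 to 127296288, plus strand) encodes CHOP, the factor linked to cell death under lasting ER stress. It was at 44.6, 47.3 and 53.9 TPM in WT and 45.2, 49.1 and 61.6 TPM in cKO libraries. Only male cKO replicate 3 lay above the WT range. A second gene model of the same name and strand covers 2925 bases of it and was not used here, so reads could be assigned to either. On the other strand 68 bases overlap *Mars*. The study's methods name stranded libraries, which tell these reads apart if strand was used in quantification, and that is not given here. *Xbp1* (chromosome 11, 5520659 to 5525893, plus strand) encodes the factor whose RNA IRE1 alpha splices. It was at 50.7, 57.7 and 66.2 TPM in WT and 53.6, 60.2 and 66.9 TPM in cKO libraries, almost the same range, with male cKO replicate 3 again highest by a small margin. The log2 differences of *Ddit3* and *Xbp1* were 0.058 ± 0.074 and 0.032 ± 0.069.

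*Trib3* (chromosome 2, 152337422 to 152344032, minus strand) encodes a pseudokinase that acts downstream of ATF4 and CHOP and holds them back. It was the only regulator below 2 TPM, at 0.214, 0.464 and 0.767 TPM in WT and 0.458, 0.573 and 1.15 TPM in cKO libraries. Every cKO library lay above the 3 lowest WT libraries, while 3 WT libraries lay among the cKO values. Its log2 difference of 0.45 ± 0.307 was the largest of the 10 in size, and its 95% interval from 0.864-fold to 2.16-fold was the widest (adjusted p = 0.867, limma).

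The last 3 members are effectors in or at the ER. *Herpud1* (chromosome 8, 94386438 to 94395377, plus strand) encodes a membrane protein that helps to send misfolded proteins to degradation. It is shown by sequence because it is the 1 regulator with an exact letter match to an ER stress element in the promoter windows searched. The promoter windows, of 250 bases before to 50 after the annotated start, were taken from RefSeq (GRCm38.p6) for 9 of the 10 genes, *Atf6* not being matched. The match lies at chr8:94386377-94386387 on the plus strand. The stretch printed, chr8:94386372-94386392, adds 5 bases on either side, and the motif is in capitals.
*Herpud1* promoter: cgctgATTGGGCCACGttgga

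The match begins at position -52 from the start of the RefSeq transcript and is that of the second form of the element, ATTGGNCCACG, which 12 of 32851 RefSeq windows hold (0.0365%). The classical element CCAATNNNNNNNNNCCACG, whose last 5 letters the second form shares, was found in 0.119% of all windows. The core TGACGTGG of ATF6 and XBP1 sites was found in 0.676%, and the amino acid response element TGATGNAAT of ATF4 sites in 0.965%. None of these 3 was found, on either strand, in the windows of the 9 regulators. *Herpud1* itself was at 36.3, 39.3 and 41.1 TPM in WT and 35.9, 39.7 and 43.8 TPM in cKO libraries. The lowest and the 2 highest libraries of the 12 were the 3 labelled female cKO, the lowest being replicate 3, whose sex is in conflict. The log2 difference of *Herpud1* was 0.04 ± 0.052. Its 95% interval, from 0.952-fold to 1.11-fold, was the narrowest of the 10.

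*Sdf2l1* (chromosome 16, 17130138 to 17132383, minus strand) encodes a partner of the Hsp40 cochaperones of the ER. It was at 11.4, 14.02 and 15.0 TPM in WT and 10.9, 13.0 and 14.7 TPM in cKO libraries. *Pdia4* (chromosome 6, 47796141 to 47813430, minus strand) encodes a protein disulfide isomerase, which forms and rearranges disulfide bonds. It was at 24.5, 27.0 and 31.7 TPM in WT and 23.2, 27.7 and 31.2 TPM in cKO libraries. For both genes the cKO range nearly coincided with the WT range, and the log2 differences were -0.08 ± 0.103 and -0.03 ± 0.081.

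A missing call does not show that levels are equal, so the intervals set what these 12 libraries allow. The 95% interval lay within 1.2-fold in both directions for 5 of the 10 regulators: *Ddit3*, *Xbp1*, *Eif2ak3*, *Herpud1* and *Pdia4*. For the other 5 (*Atf4*, *Atf6*, *Ern1*, *Trib3* and *Sdf2l1*) a difference of 1.2-fold in at least 1 direction was not outside it. With the 9 CMV-named libraries alone (6 cKO against 3 male WT) the median over the 10 genes was 0.055 and 0 were called, and without the 2 libraries of conflicting sex it was 0.073 and 0 were called.

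**Figure D2:**
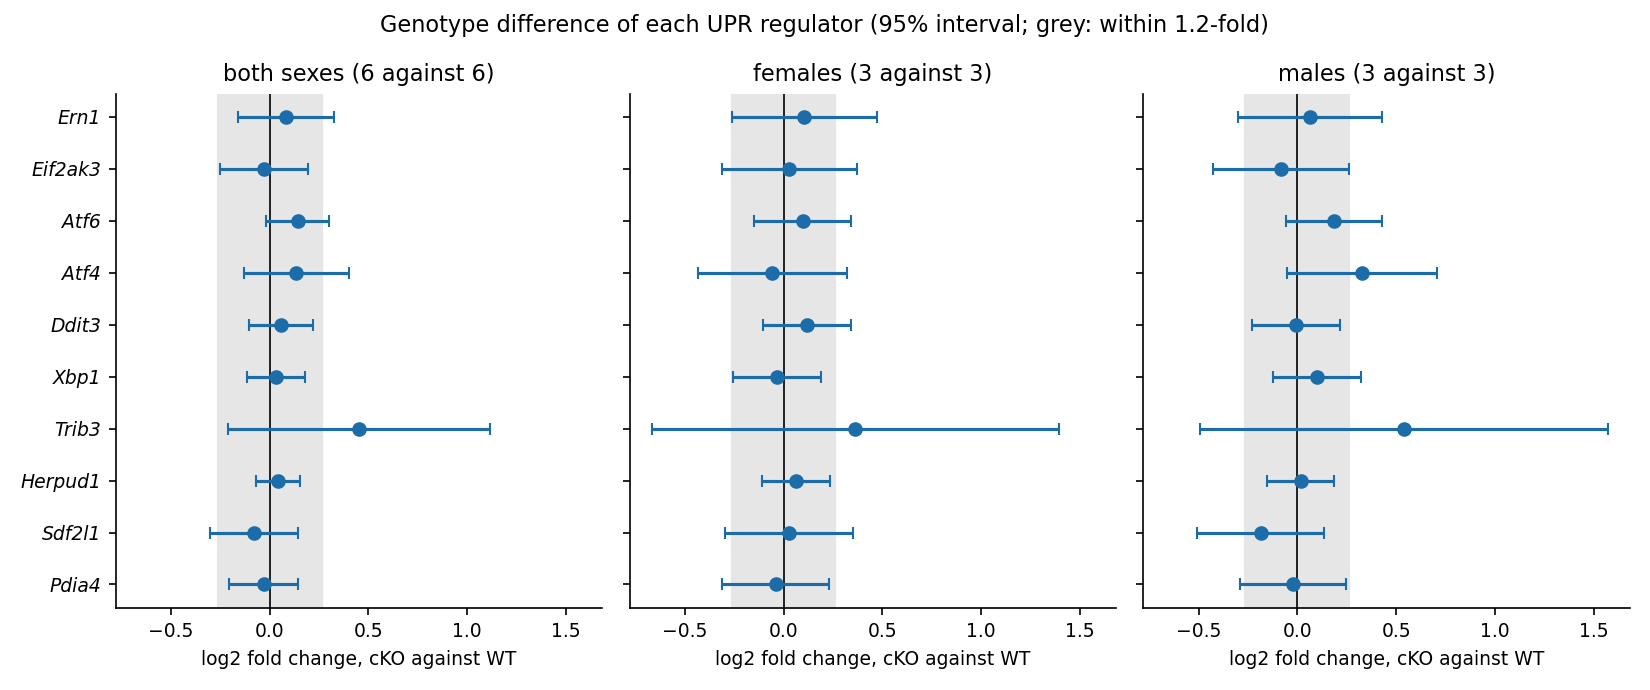
Log2 fold change of *Dek* cKO against WT (x axis, on log2(TPM + 0.1)) for each UPR regulator (y axis) in both sexes, in females and in males. Points are limma estimates, bars their 95% intervals, and the grey band marks differences within 1.2-fold. Every interval includes 0, and that of *Trib3*, the least expressed gene, is the widest in each panel.

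The study also compared the genotypes within each sex. In females, 0 of 10 regulators were called, beside 0.0165% of all genes, and 0 of 10 had an unadjusted p under 0.05, beside 5.79%. By the labels, *Ddit3* and *Atf6* were the 2 genes whose 3 cKO libraries all lay above the 3 WT libraries, a pattern found in 7.45% of all genes. *Ddit3* was at 44.6, 45.9 and 46.7 TPM in female WT and at 47.0, 50.2 and 52.2 TPM in female cKO libraries (log2 difference 0.12 ± 0.102, adjusted p = 0.943, limma). *Atf6* was at 21.8, 23.2 and 23.7 TPM in female WT and at 23.8, 24.3 and 25.3 TPM in female cKO libraries, the gap between the groups being smaller than the range within either (0.097 ± 0.111, adjusted p = 0.962, limma). Without the libraries of conflicting sex, which leaves 2 female cKO libraries, both genes kept separate groups, with log2 differences of 0.16 and 0.073. With the sexes of the quality display *Ddit3* overlapped (45.2 to 52.2 TPM in cKO, 0.10) and *Atf6* did not (23.8 to 24.3 TPM, 0.078). *Herpud1* overlapped by the labels, at 36.3 to 41.1 TPM in female WT and 35.9 to 43.8 TPM in female cKO libraries. Without the libraries of conflicting sex its female cKO libraries lay at 42.8 and 43.8 TPM, above WT, and the log2 difference of 0.15 had an unadjusted p of 0.036 (adjusted p = 0.525, limma), as 8.69% of all genes then had one under 0.05. *Eif2ak3* also overlapped by the labels, at 11.99 to 13.3 TPM in female WT and 9.75 to 15.5 TPM in female cKO libraries. Its female cKO libraries lay above WT without the libraries of conflicting sex (13.9 and 15.5 TPM) and with the sexes of the quality display (13.7 to 15.5 TPM). The share of all genes with separate groups in those 2 forms, 1 of which leaves 2 cKO libraries, is not given here. The median log2 difference over the 10 genes was 0.047 in females, and 0.11 without female cKO replicate 3.

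In males, 0 of 10 regulators were called, beside 0.0165% of all genes, and 0 of 10 had an unadjusted p under 0.05, beside 5.45%. *Herpud1* was the 1 gene with separate groups, as 5.91% of all genes had with cKO higher. It was at 38.8, 39.2 and 39.5 TPM in male WT and at 39.5, 39.6 and 39.7 TPM in male cKO libraries, a log2 difference of 0.016 ± 0.078, the highest WT and the lowest cKO library being equal to 3 digits. The groups were separate without the libraries of conflicting sex (0.018) and overlapped with the sexes of the quality display, where cKO ranged from 35.9 to 39.7 TPM (-0.029). *Sdf2l1* was separate only without the libraries of conflicting sex, where it was lower in cKO. It was then at 13.5 to 15.0 TPM in male WT and at 10.9 to 12.5 TPM in the 2 remaining male cKO libraries. The share of all genes with separate groups in that form is not given here. *Atf4* had the smallest p in males (0.0831, adjusted p = 0.880, limma), at 73.6, 74.0 and 76.5 TPM in WT and at 76.4, 78.4 and 137 TPM in cKO libraries. The log2 difference was 0.33 ± 0.172, and 0.051 without replicate 3, so most of it lay in 1 animal. It was 0.46 without the libraries of conflicting sex (unadjusted p = 0.0449, adjusted p = 0.551, limma), where 9.03% of all genes had an unadjusted p under 0.05, and 0.33 with the sexes of the quality display (adjusted p = 0.665, limma). In that display's sexes *Eif2ak3* had a male difference of -0.25 (unadjusted p = 0.0495, adjusted p = 0.621, limma), beside -0.083 by the labels, and 7.99% of all genes had an unadjusted p under 0.05. The median over the 10 genes was 0.04 in males.

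Whether the genotype difference itself differed between the sexes was tested as an interaction, male minus female. It was called for 0 of 10 regulators and for 0 of all genes tested (0.0%), and at an unadjusted p under 0.05 for 0 of 10 regulators and 4.23% of all genes. The largest interaction among the regulators was that of *Atf4*, 0.38 ± 0.243 (95% interval -0.15 to 0.92, adjusted p = 0.966, limma), which was 0.11 without male cKO replicate 3, 0.49 without the libraries of conflicting sex and 0.38 with the sexes of the quality display. The next was that of *Sdf2l1*, -0.21 ± 0.207, from a difference of 0.027 in females and -0.19 in males, and -0.25 in both of those forms. *Eif2ak3* moved more, from -0.11 by the labels to -0.38 without the libraries of conflicting sex (unadjusted p = 0.0411, adjusted p = 0.550, limma) and -0.44 with the sexes of the quality display (unadjusted p = 0.0179, adjusted p = 0.735, limma). Of all genes, 8.83% and 6.61% had an unadjusted p under 0.05 in those forms. The median over the 10 genes was -0.014 by the sample labels and -0.11 with the sexes shown in the quality display. The interaction uses the C57-named female WT and the CMV-named male WT libraries, so sex and naming cannot be told apart among WT mice. In WT mice alone, males and females differed at an unadjusted p under 0.05 in 0 of 10 regulators and 3.63% of all genes, the smallest p being 0.131 (*Ddit3*, 0.17 ± 0.102 higher in males, adjusted p = 1.0, limma).

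The rest of the pathway was followed through 7 lists holding 162 genes, 15 of them in 2 lists. In both sexes together 0 of the 162 were called, and 13 (8.02%) had an unadjusted p under 0.05, beside 6.64% of all genes. Of these, 11 were higher and 2 lower in cKO, where all genes gave 4.84% and 1.80%. The counts were 7 of 162 in females (4.32%, beside 5.79%), 8 in males (4.94%, beside 5.45%) and 11 for the interaction (6.79%, beside 4.23%), again with 0 called in each.

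Among 35 targets of the PERK and ATF4 branch, 0 were called in any comparison, and the median log2 difference was 0.011 in both sexes. *Aldh18a1*, an enzyme of proline synthesis, ranged from 8.55 to 11.8 TPM in WT and from 10.1 to 15.3 TPM in cKO libraries. The cKO values of female replicate 3 and male replicate 2 lay within the WT range and the other 4 above it, and the log2 difference was 0.34 ± 0.104 (adjusted p = 0.466, limma). *Eif4ebp1*, an inhibitor of translation, was at 3.03 to 4.48 TPM in WT and 3.11 to 5.54 TPM in cKO. *Cebpb*, a transcription factor, and *Mthfd2*, a mitochondrial folate enzyme, had the largest interactions of the list (0.73 and 0.65), and both had their highest value in male cKO replicate 3 (28.6 and 7.83 TPM), beside 8.496 to 13.6 and 3.79 to 6.68 TPM in the other 11 libraries.

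Among 30 targets of the IRE1 and XBP1 branch the median was 0.043, with 18 differences above 0 and 0 called. *Ssr1*, a subunit of the complex at the ER translocon, was the 1 gene of the 162 whose cKO and WT libraries did not overlap, at 27.1 to 28.1 TPM in WT and 29.0 to 31.7 TPM in cKO (0.572% of all genes separate with cKO higher). It was named after its values were seen. Its log2 difference was small, 0.11 ± 0.038 (adjusted p = 0.536, limma). *Spcs2*, a subunit of the signal peptidase, was at 2.47 to 4.29 TPM in WT and 3.70 to 5.72 TPM in cKO (0.38 ± 0.151). *Sec61g*, a subunit of the translocon, was at 13.8 to 19.8 and 14.7 to 28.7 TPM (0.32 ± 0.144). *Wfs1*, an ER membrane protein, was at 43.5 to 71.2 TPM in WT and 36.5 to 68.3 TPM in cKO.

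Among 15 targets of the ATF6 branch the median was 0.011, with 8 differences above 0. *Creld2* and *Manf*, which encode proteins of the ER lumen, were at 13.4 to 18.6 and 59.3 to 80.9 TPM in WT and at 14.5 to 23.3 and 62.6 to 98.6 TPM in cKO. *Crebrf*, a regulator of CREB3 factors, was at 17.03 to 20.5 TPM in WT and 15.4 to 20.3 TPM in cKO. The 29 other sensors, transducers and eIF2 factors had a median of 0.039, with 21 above 0. *Creb3l2*, a transcription factor anchored in the ER membrane, was at 5.10 to 7.22 TPM in WT and 5.72 to 9.50 TPM in cKO (0.26 ± 0.121, adjusted p = 0.749, limma). *Eif2ak2*, which encodes the eIF2 alpha kinase PKR, was at 5.44 to 7.25 and 5.81 to 9.50 TPM, and *Eif2b1*, a subunit of the exchange factor eIF2B, at 24.9 to 28.5 and 25.1 to 34.7 TPM. For these 3 genes the highest library was again male cKO replicate 3.

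The 28 genes of ER-associated degradation had a median of 0.0020 with 14 differences above 0 and 14 below, and 0 of them had an unadjusted p under 0.05 in any of the 4 comparisons. *Edem1*, *Ube2g2* and *Hm13* of this list differed by 0.12, 0.14 and -0.10 on the log2 scale. Among the 30 folding enzymes and chaperones the median was 0.014. *Cnpy2* was lower in cKO (15.9 to 27.8 TPM in WT, 14.5 to 22.3 TPM in cKO, log2 difference -0.30 ± 0.134, adjusted p = 0.729, limma), with overlapping groups. *Sil1*, the exchange factor of BiP, differed by 0.19 ± 0.079 (adjusted p = 0.704, limma) and *Pdia5* by 0.19 ± 0.159. The 10 cell death genes of the response had a median of 0.12 with 8 above 0, beside 55.8% of all genes, and a median of 0.037 without the libraries of conflicting sex. They were led by the death receptor gene *Tnfrsf10b* at 0.66 to 1.04 TPM in WT and 0.99 to 1.37 TPM in cKO (0.54 ± 0.160, adjusted p = 0.421, limma). *Pmaip1* and *Casp12* of the same list, both near 1 TPM, differed by 0.25 ± 0.155 and 0.20 ± 0.292.

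The largest interactions of each list, described here, were none of them called (adjusted p = 0.966 for each, limma). *Creb3l1*, a relative of *Creb3l2*, was at 2.45 to 2.72 TPM in female WT and 1.505 to 2.23 TPM in female cKO, and at 1.66 to 2.71 TPM in male WT and 2.10 to 4.09 TPM in male cKO libraries. Its interaction of 0.90 ± 0.381 was 0.36 with the sexes of the quality display. *Cnpy2* was at 19.4 to 27.8 TPM in female WT and 14.5 to 16.7 TPM in female cKO libraries, which do not overlap, and at 15.9 to 22.0 and 15.2 to 22.3 TPM in males, which do (0.55 ± 0.237). *Wfs1* showed the opposite layout, with separate ranges in males (55.3 to 68.9 TPM in WT, 42.4 to 46.3 TPM in cKO) and overlapping ones in females (-0.55 ± 0.320). Of all genes, 7.45% in females and 5.91% in males had separate groups with cKO higher, and the share with cKO lower is not given here. *Cnpy2* and *Wfs1* were named for a large interaction, which separate groups in 1 sex can produce. The interactions of *Mesd*, *Eif2b2* and *Manf* were 0.41, 0.41 and 0.38, and with the sexes of the quality display they were 0.13, 0.10 and 0.16. Those of *Sec24d* (0.47), *Crebrf* (-0.30), *Derl2* (0.24), *Os9* (-0.23) and *Bbc3* (-0.51) were also among them.

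The list medians moved with single libraries. In both sexes together and without male cKO replicate 3, the medians of the PERK and ATF4, the IRE1 and XBP1 and the ATF6 targets were 0.0033, 0.0078 and -0.012. Those of the other sensors and transducers, the folding enzymes and chaperones and the cell death genes were then 0.019, 0.011 and 0.23, and that of the degradation genes was 3.79e-06. In females the median log2 difference was -0.054 for the ATF6 targets and -0.036 for the folding enzymes and chaperones, and it was 0.020 and -0.002 without female cKO replicate 3. In males the corresponding medians were 0.085 and 0.070, and 0.014 and 0.047 without male cKO replicate 3. With the sexes of the quality display the order of the sexes turned, to 0.050 and 0.031 in females and -0.016 and -0.010 in males. For the PERK and ATF4 targets the male median of 0.074 was 0.0041 without male cKO replicate 3. No gene of these 3 lists was called for the interaction in any of these forms of the labels.

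**Figure D3:**
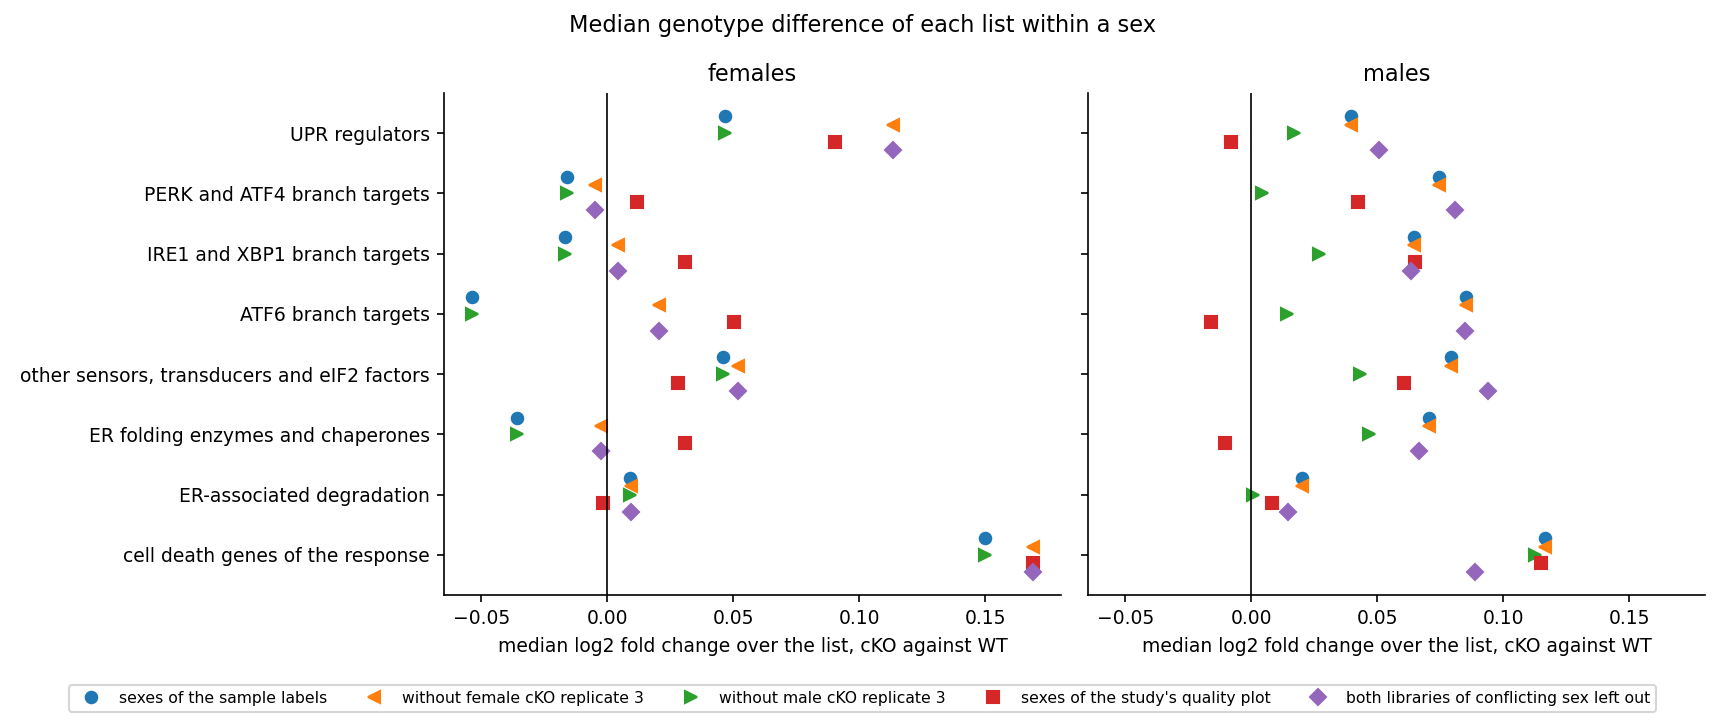
Median log2 fold change of *Dek* cKO against WT (x axis) over the UPR regulators and 7 lists of the pathway (y axis), in females and in males. Symbols give the value by the sample labels, without female cKO replicate 3, without male cKO replicate 3, with the sexes of the study's quality plot, and without both libraries of conflicting sex. The ATF6 targets lie at -0.054 in females and 0.085 in males by the labels and at 0.050 and -0.016 with the sexes of the quality plot.

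Male cKO replicate 3 was examined further, since it held the highest value of 4 of the 10 regulators. It was the highest of the 12 libraries for *Atf4* (137 TPM, 1.75-fold the median of the other 11), *Ddit3* (61.6 TPM, 1.29-fold), *Xbp1* (66.9 TPM, 1.15-fold) and *Atf6* (31.5 TPM, 1.36-fold), and not for the other 6. The same held for 66 of the 162 list genes (40.7%), beside 19.5% of all genes tested. By list it was highest for 17 of 35 PERK and ATF4 targets, 15 of 30 IRE1 and XBP1 targets, 8 of 15 ATF6 targets, 15 of 29 other sensors and transducers, 10 of 30 folding enzymes and chaperones, 6 of 28 degradation genes and 2 of 10 cell death genes. It was the lowest library for 20 of the 162 list genes (12.3%), beside 15.3% of all genes tested. Genes picked after their values were seen show the size of this: *Atf3* was at 3.22 TPM beside 0 to 1.75 TPM in the other 11 libraries, *Nupr1* at 22.1 beside 6.39 to 13.95 TPM, *Sec24d* at 25.1 beside 9.93 to 13.9 TPM, and *Hspa5*, which encodes the chaperone BiP, at 227 beside 121 to 183 TPM. *Gfap*, a marker of astrocytes that rises in reactive ones, was at 1267 TPM in this library and at 208 to 437 TPM in the others, and *Aqp4* at 99.4 TPM beside 43.3 to 57.3 TPM. The 5 astrocyte markers summed to 1700 TPM beside 652 to 960 TPM, most of it *Gfap*. The markers other than *Gfap* and *Aqp4* were not high here: *Gja1* was lowest here (68.6 TPM beside 116 to 151 TPM), and *Slc1a3* and *Aldh1l1* lay within the other libraries. The 4 markers without *Gfap*, *Aqp4* among them, summed to 433 TPM beside 424 to 523 TPM. The part of astrocytes in these values was not tested.

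Female cKO replicate 3 lay at the other end for chaperones. It was the lowest of the 12 libraries for 40 of the 162 list genes (24.7%), beside 11.02% of all genes tested. These included 13 of 30 folding enzymes and chaperones and 6 of 15 ATF6 targets, with *Hspa5* at 121 TPM beside 147 to 227 TPM in the other libraries. Of the regulators it was lowest for *Eif2ak3* and *Herpud1*.

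**Figure D4:**
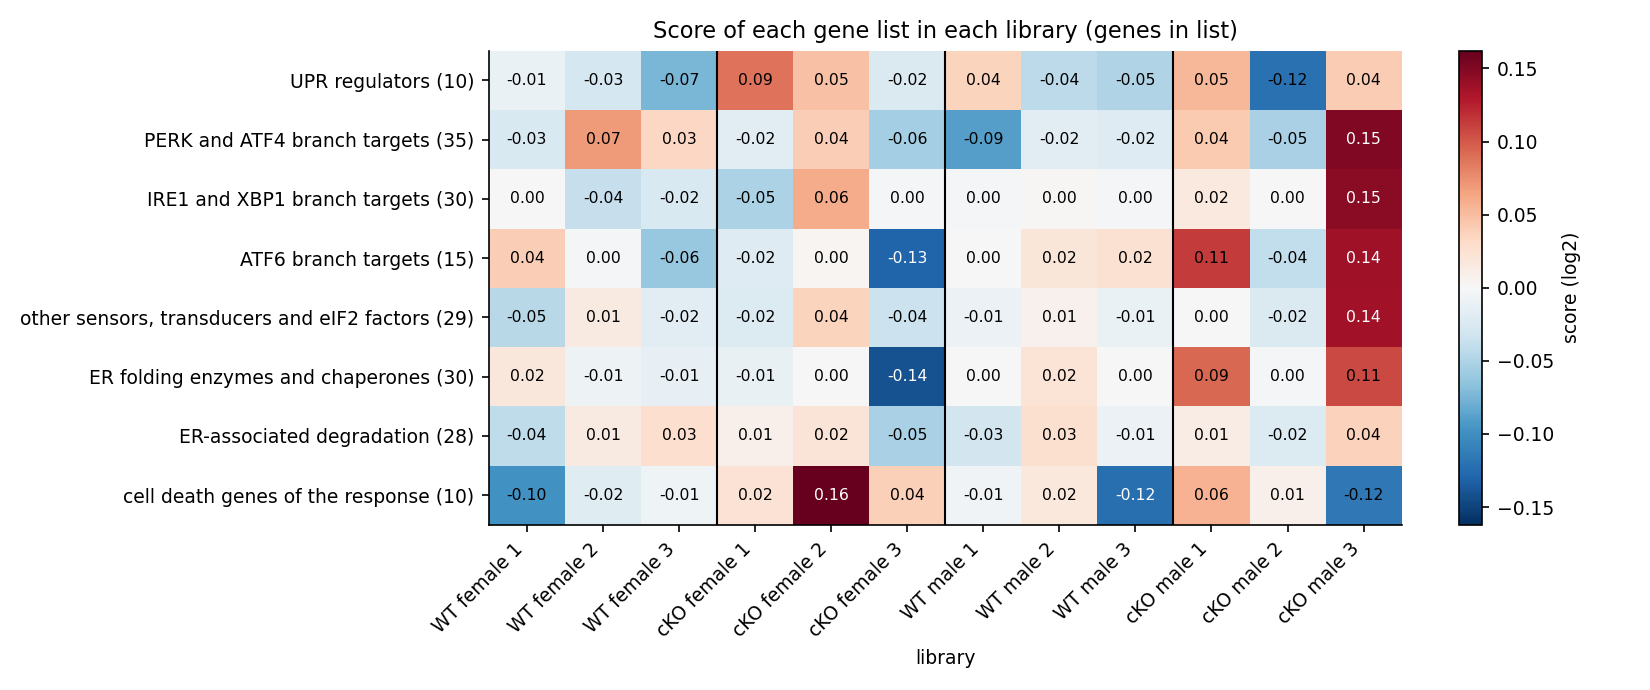
Score of each gene list (rows, number of genes in parentheses) in each library (columns, the 4 groups separated by lines). The score is the median over the list of a gene's log2 value minus its median over the 12 libraries, red above and blue below 0. Male cKO replicate 3 has the highest score of the 3 target lists, 0.15, 0.15 and 0.14, and female cKO replicate 3 the lowest of the folding enzymes and chaperones, -0.14.

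Few of the regulators were correlated over the 12 libraries. Pearson's r was above 0 in 32 of the 45 pairs, with a median of 0.16, and was -0.55 and -0.53 for *Herpud1* with *Sdf2l1* and *Pdia4*. In 1 pair it passed an adjusted p under 0.05: *Sdf2l1* and *Pdia4* had Pearson's r = 0.854 (permutation p = 0.00038, adjusted 0.0171) and Spearman's rho = 0.867 (permutation p = 0.00044, adjusted 0.0198). Without the 2 libraries farthest from the median of *Sdf2l1* r was 0.740, on deviations from the 4 group means it was 0.917, and in the 9 CMV-named libraries it was 0.830. At an unadjusted permutation p under 0.05 of Pearson's r there were 5 pairs. *Atf4* and *Xbp1* had r = 0.670 (permutation p = 0.0029, adjusted 0.0652) and rho = 0.664 (permutation p = 0.0229, adjusted 0.415). Their r was 0.670 without male cKO replicate 3 and 0.422 without the 2 farthest libraries. *Atf4* and *Atf6* had r = 0.884 (permutation p = 0.0135, adjusted 0.203) and rho = 0.483 (permutation p = 0.118, adjusted 0.416), and r = 0.332 without the 2 farthest libraries, so that relation rested on male cKO replicate 3. All libraries share the scaling to a common total.

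All 10 regulators were also compared with 12 lists of markers, mostly of the cell types that a hippocampal dissection can hold. The comparison was added after the data were seen, and most relations given here are those of *Sdf2l1* and *Pdia4*. No marker of the 12 lists was at 0 in all libraries. The 6 neuronal markers summed to between 3369 and 3763 TPM and the 4 markers of dentate granule cells, which belong to the hippocampus, to between 70.9 and 124 TPM. The choroid plexus, the secretory tissue beside the hippocampus, varied most: its 6 markers summed to between 139 and 5212 TPM, with *Ttr* between 37.4 and 4289 TPM, and the ranges of WT and cKO libraries overlapped (182 to 3513 and 139 to 5212 TPM). Its score had r = 0.811 with *Pdia4* (permutation p = 0.00176, adjusted over 120 relations 0.211) and r = 0.759 with *Sdf2l1* (permutation p = 0.00515, adjusted 0.309). Spearman's rho was 0.762 and 0.706 (permutation p = 0.0056 and 0.0129, adjusted 0.266 and 0.387), and r was 0.729 and 0.649 without the 2 farthest libraries and 0.841 and 0.719 in the 9 CMV-named libraries. The dentate granule cell score also had r = 0.614 with *Pdia4* and 0.615 with *Sdf2l1* (permutation p = 0.0341 and 0.0342, adjusted 0.446 for both). Without the 2 farthest libraries these were 0.368 and 0.357. *Herpud1* had rho = -0.755 with the dentate granule cell score (permutation p = 0.00607, adjusted 0.266). Its r was -0.642 (permutation p = 0.0236, adjusted 0.446), and -0.428 without the 2 farthest libraries. *Trib3* had r = 0.634 with the endothelium score (permutation p = 0.0269, adjusted 0.446), and 0.521 without them. None of these relations passed the adjusted threshold, and the part of these tissues or cell types in the levels of the genes was not tested further.

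**Figure D5:**
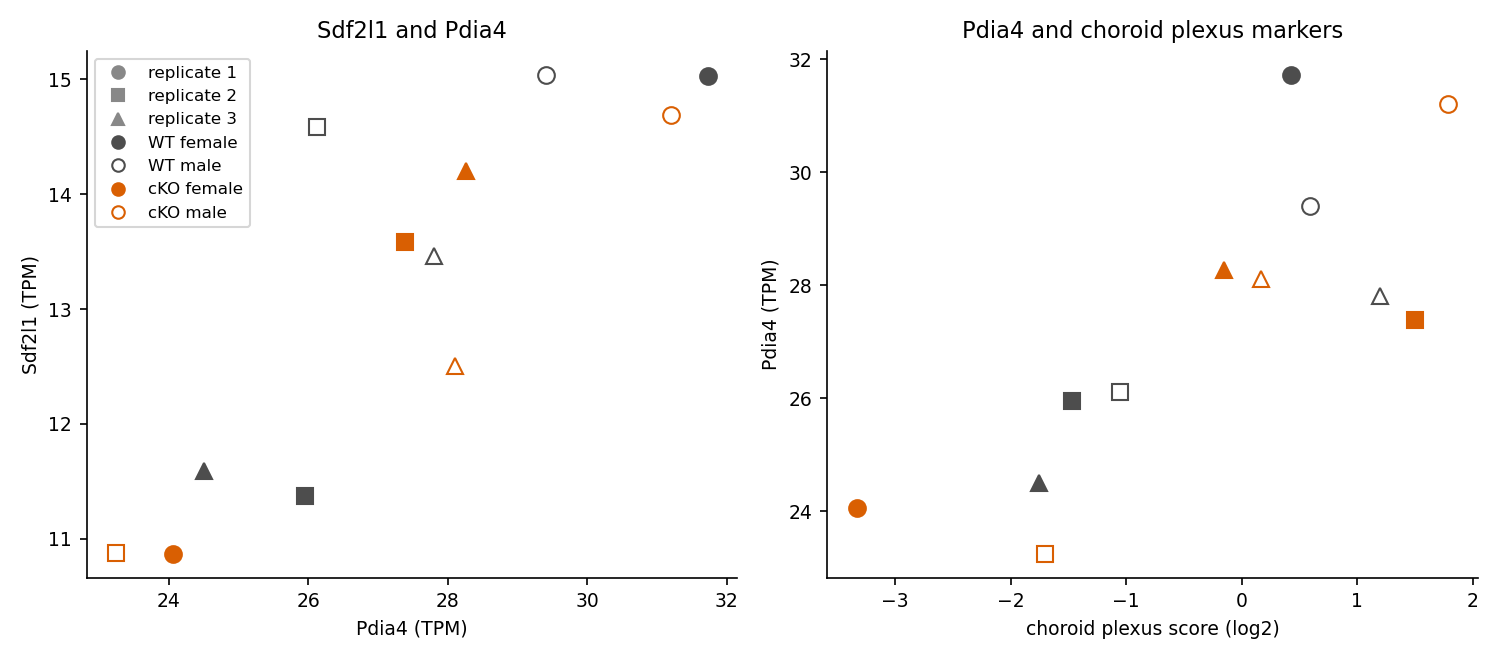
Left, *Sdf2l1* against *Pdia4* (both in TPM) in the 12 libraries. Right, *Pdia4* (TPM) against the choroid plexus score (log2). Grey is WT and orange *Dek* cKO, filled symbols are female and open ones male by the labels, and the shape gives the replicate. Both effectors are lowest together in male cKO replicate 2 and female cKO replicate 1, which score -1.71 and -3.33 for choroid plexus.

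For each regulator the 2 genes of at least 1 TPM with the most similar profile over the 12 libraries were listed by Pearson's r of log2 values, as a description. *Atf4* was most like *Npy*, a neuropeptide gene, and *Hcfc2* (r = 0.973 and 0.972), and these values were 0.660 and 0.658 without male cKO replicate 3. *Atf6* was most like *Pmepa1* and *Abcb10* (0.963 and 0.961, and 0.846 and 0.820 without that library). *Ern1* was most like *Ccdc92* and *B4galnt1* (0.928 and 0.906) and *Eif2ak3* like *1110032F04Rik* and *Ank1* (0.910 and 0.901). *Ddit3* was most like *Zswim7* and *Taf1d* (0.924 and 0.886), *Xbp1* like *Zfp948* and *Shc4* (0.881 for both) and *Trib3* like *Tmod3* and *Ctdp1* (0.877 and 0.860). *Herpud1* was most like *Fxyd5* and *Gramd4* (0.931 for both), *Sdf2l1* like *Chm* and *Ceacam2* (0.888 and 0.875) and *Pdia4* like *Traf6* and *Hist1h2bc* (0.930 and 0.882). None of these 20 genes belongs to the 7 lists, and as the extremes among 14160 genes they are given with no p.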

How the data were processed

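The deposited table gives TPM per gene for 12 libraries, whose columns were matched to samples by name. The deposited TPM carries no read counts. The study's methods name stranded poly-A libraries, STAR and Salmon on GRCm38, the submitters' processing notes name kallisto and mm10, and which of them wrote the table is not given in the sources used here. GENCODE M21 named 25245 of the 26409 Ensembl IDs.

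Values were log2 transformed after adding 0.1 TPM, keeping the 18197 genes that averaged 0.1 TPM or more. Tests were made with limma 3.58.1 (R 4.3.3, trended prior variance, two-sided, Benjamini-Hochberg over all genes tested). Both sexes were compared as 2 groups of 6, and sexes, their WT mice and the interaction as contrasts of 1 fit of 4 groups. Calls needed a fold change above 1.2 and an adjusted p under 0.05, the study's thresholds. Its DESeq2 test needs counts and was not run. Correlations used log2 values and 100000 permutations.

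The 10 regulators and the lists were chosen with earlier results of these data known. Genes named are the regulators, for each list the 3 of at least 1 TPM with the largest difference in both sexes and the 2 with the largest interaction, and for each regulator the 2 most correlated genes. Others were chosen after their values were seen. Results for 1 gene named by this rule are not reported here. A library's score is the median over a list of log2 values relative to the gene's median library.

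Alternatives were 0.5 or 1 TPM added, no filter, a minimum mean of 1 TPM, median ratio rescaling, quantile normalization, no trend, a replicate block, sex as a covariate, CMV-named libraries only, the sexes of the quality display, both libraries of conflicting sex left out (for both sexes together added after the data were seen), a fit on 1 sex and each library left out. Steps were tested on simulated data. Other steps used scipy 1.17.1, numpy 2.4.6 and pandas 2.3.3 in Python 3.11.15.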

Additional observations from a re-analysis of the deposited data

Results flagged for a closer look

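Libraries of each genotype (6 each) were examined for a single value far from the others in 40 genes, the 10 regulators and the genes of the lists named by rule, which gives 80 groups. A gap to the nearest library above 0.625 of the group's range marked 9 of them. For normal values chance alone marks about 1 in 20 groups. That rate does not apply to 30 of the 40 genes, picked for a large difference or interaction, which a single far library can produce. Among the regulators 3 of 20 groups were marked. Their groups share the same libraries and are not independent, so this count is no test against that rate. In 6 of the 9 the library was male cKO replicate 3, which was high for *Atf4* (137 TPM, next highest cKO library 82.5), *Atf6* (31.5, next 25.3), *Cebpb* (28.6, next 12.9), *Mthfd2* (7.83, next 5.05), *Sec24d* (25.1, next 13.9) and *Creld2* (23.3, next 17.7). *Gfap* was at 1267 TPM in the same library. The other flagged values were *Ern1* in female WT replicate 3 (6.66 TPM, next 5.55), *Creb3l1*, a transcription factor of the ER membrane, in male WT replicate 2 (1.66 TPM, next 2.45) and *Os9*, a lectin of ER-associated degradation, in female WT replicate 1 (80.1 TPM, next 92.4). None of the 40 genes had an interaction with an adjusted p under 0.05 in limma, and none had all cKO libraries above WT in one sex and below in the other.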

How the results depend on the processing

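Of 28 alternatives, 12 of which leave out 1 library each, 23 applied to each genotype comparison and 22 to the interaction. None gave a regulator called, and the smallest adjusted p of a regulator in limma over all of them was 0.429. Of 906 single log2 differences recomputed, 847 kept their sign and 59 changed it, all between values that were not called, and the cause was not tested. The replicate number did not pair libraries (correlations of deviations of same-numbered libraries from -0.038 to 0.045, and not every library was most like its own number), and a replicate block gave 3, 1 and 1 genes called of all tested in both sexes, females and males, against 27, 3 and 3. In both sexes 17 genes were called without a filter, 10 with CMV-named libraries only (*Ddit3* -0.025) and 12 without the libraries of conflicting sex (*Eif2ak3* 0.038). In females 7 were called without trend, 9 with the sexes of the quality display (*Xbp1* 0.022, *Pdia4* 0.0090), 6 without the libraries of conflicting sex (median 0.11, *Xbp1* 0.024, *Sdf2l1* -0.047) and 1 in a fit on females alone. In males 6 were called without a filter, 6 without trend, 6 in a fit on males alone, 5 with the sexes of the quality display (*Ddit3* 0.013, *Ern1* -0.030, *Herpud1* -0.029) and 6 without the libraries of conflicting sex (*Ddit3* 0.083, *Ern1* -0.095). Quantile normalization gave -0.0012 for *Ern1* in males. For the interaction 2 were called without a filter, 2 without trend, 3 with the sexes of the quality display (median -0.11, *Trib3* -0.60, *Pdia4* -0.079) and 3 without the libraries of conflicting sex (median -0.11, *Trib3* -0.34, *Pdia4* -0.033).

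Leaving out 1 library gave 13 to 27 genes called in both sexes, 1 to 8 in females, 2 to 7 in males and 0 to 1 for the interaction. The median over the regulators ran from 0.0016 (without male cKO replicate 3) to 0.075 in both sexes, from 0.0061 to 0.11 (without female cKO replicate 3) in females, from 0.017 to 0.14 (without male cKO replicate 2) in males and from -0.069 to 0.14 for the interaction. Of the regulators whose sign turned, in both sexes *Ddit3* ran from -4.54e-05 to 0.089, *Xbp1* from -0.0054 to 0.072, *Eif2ak3* from -0.086 to 0.048 and *Pdia4* from -0.073 to 0.012. In females *Xbp1* ran from -0.084 to 0.043, *Eif2ak3* from -0.11 to 0.23, *Trib3* from -0.038 to 0.60, *Sdf2l1* from -0.047 to 0.16 and *Pdia4* from -0.11 to 0.072. In males *Ddit3* ran from -0.14 to 0.083, *Ern1* from -0.095 to 0.25, *Eif2ak3* from -0.15 to 0.015 and *Pdia4* from -0.12 to 0.094. For the interaction *Atf6* ran from -0.060 to 0.20, *Ern1* from -0.20 to 0.14, *Eif2ak3* from -0.31 to 0.025, *Trib3* from -0.17 to 0.58, *Herpud1* from -0.14 to 0.0053 and *Pdia4* from -0.094 to 0.13.

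With 3 libraries in a group, 8 of the 10 intervals within each sex reached beyond 1.2-fold. The table holds no read counts, and protein, phosphorylation and *Xbp1* splicing were not analysed here.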
